A study of Mus musculus with 15 samples.

Results

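The epidermal growth factor (EGF) signalling system was examined in mouse cumulus cells, which enclose the oocyte in the follicle, through 5 EGF-like ligands (Areg, Ereg, Btc, Hbegf and Nrg1), 3 ERBB receptors (Egfr, Erbb2 and Erbb3), the sheddase Adam17 and the receptor inhibitor Errfi1. Probes carrying these symbols in the authors' table made up 10 of its 20855 gene probes and covered 8 of the 10 genes, out of 15059 genes named in it. Egfr had 3 probes and each of the others 1, whereas Nrg1 and Erbb3 had no probe in the table. Expression was measured on 15 one-colour Agilent arrays, each hybridized with RNA from a pool of cumulus cells of several B6CBAF1/J mice, 5 arrays per stage. NC1 cells came from unexpanded complexes of juvenile mice aged 3 weeks, whose prophase I oocytes had no or only poor developmental competence. C1 cells came from unexpanded complexes of adults aged 8 weeks with competent prophase I oocytes. C2 cells came from expanded complexes collected in the oviduct of superovulated adults aged 8 weeks, with oocytes in metaphase II. NC1 and C1 thus differed in age as well as stage. C1 and C2 differed also in gonadotropin treatment, collection site and dispersal by hyaluronidase, and stage cannot be told apart from any of these.

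In the preovulatory follicle, the luteinizing hormone surge makes granulosa cells produce amphiregulin (Areg), epiregulin (Ereg) and betacellulin (Btc) as membrane-bound precursors. ADAM17 releases them, and they bind EGFR on cumulus cells, where the RAS and ERK kinases relay the signal to genes of cumulus expansion and of oocyte maturation. ERBB2 has no ligand of its own and pairs with ligand-bound ERBB receptors, neuregulins bind ERBB3 and ERBB4, and ERRFI1 is an inhibitor of active EGFR and ERBB2 that the signal itself induces.

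Levels are given as log2 signal minus the array's median over 17324 probes that were well above background in at least 4 of 5 arrays of every stage, so that 0 is the median level of these probes. A level describes its own probe across arrays and does not rank different probes. Changes are differences of mean levels on this log2 scale with the standard error (SE) and the Benjamini-Hochberg adjusted p of limma over 20844 probes tested, and a probe was called at an adjusted p under 0.01. With pools labelled only by number, these p-values measure the spread between pools.

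The 15 arrays lay on 4 slides and had 18368 to 24496 gene probes well above background. C1 replicate 4 had the highest number and stood apart for Areg, Ereg, Btc and Errfi1. Over all probes it correlated with the other C1 arrays at a median r of 0.975, against 0.983 among those arrays, and with the C2 arrays at 0.903, against 0.897 for the other C1 arrays. Results that include C1 were therefore also computed without it. Since C1 replicate 4 was left out for its levels in Areg, Ereg, Btc and Errfi1, calls of these genes without it depend on that choice. The same holds for other genes that were high in it, such as Epgn, and such calls are no separate support. Of 8 granulosa and cumulus markers tested, 7 had lower levels at C2 and 1, Foxl2, did not pass the test against C1, with the summed marker level falling from between 269 and 356 at C1 to between 59.9 and 85.2 at C2 (in units of the array median). All 7 theca and stroma markers tested were lower at C2 (summed level 9.9 to 16.5 at C1 and 0.495 to 0.728 at C2). Of 8 oocyte markers, 5 were lower at C2 (summed level 9.47 to 26 at C1 and 0.559 to 11.3 at C2). The summed levels, which weigh bright probes most, were higher at C2 for leukocyte markers (0.495 to 0.946 at C1, 2.6 to 3.89 at C2). Of these, 1 of 4 was called higher, Cd52, with a mean level of 1.46 at C2, where C1qa, the next brightest, had -1.63. For oviduct epithelium markers the sums were 7.21 to 11.9 at C1 and 25 to 30.3 at C2. Of these, 2 of 6 were called higher, Krt8 and Krt18, the brightest at C2 (3.28 and 3.85), and 2 lower, Epcam and Tppp3. Ovgp1, the next brightest at C2 (1.52), rose by 2.28 from C1 and was not called (limma adjusted p = 0.0406). Against NC1, 3 of the 6 were called higher at C2, Ovgp1 (3.32, limma adjusted p = 0.00472), Krt8 and Krt18, and 0 lower. Red blood cell markers summed to 73.5 to 439 at NC1 and at most 43.6 at C1, with 4 of 5 lower at C1. The part of these cells in the member results was not tested, and in pooled cells fewer cells of a type and less RNA per cell cannot be told apart.

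Between C1 and C2, 5 of the 10 member probes were called, 2 higher and 3 lower, where 48.6% of all probes tested were called (24.2% higher and 24.4% lower), so the share of members called was near the background. Without C1 replicate 4, 7 were called, 4 higher and 3 lower, against 47.2% of all probes (23.2% higher and 24% lower). The members that were higher were Btc and Errfi1, and without C1 replicate 4 also Areg and Ereg. Those that were lower were Hbegf, the Egfr variant 1 probe and Erbb2. Probes were tested if well above background in at least 4 of 5 arrays of at least 1 stage. Areg, Ereg and Btc met this only at C2, and Hbegf only at NC1 and C1. The directions of these ligands at C2 were thus largely set by that filter, and their counts are no support for a pattern. Between NC1 and C1, 1 member probe was called lower, against 2.94% of all probes (2.1% higher and 0.84% lower), and without C1 replicate 4 another 1 was called higher in its place, against 3.11% (2.32% higher and 0.796% lower). Between NC1 and C2, all 10 were called, 4 higher and 6 lower, against 52.4% of all probes (25.4% higher and 26.9% lower). The C2 arrays did not overlap with the C1 arrays for 3 member probes (44.9% of all probes), or for 8 once C1 replicate 4 was left out (48.2%). The NC1 arrays did not overlap with the C1 arrays for 3 member probes (6.49% of all probes) and with the C2 arrays for 9 (51%). The 3 were Ereg, which was not well above background in any NC1 array, Egfr variant 1 and Egfr variant 2 probe A. Egfr gave 3 of the 10 member probes, so these counts are of probes and weigh this gene more than the others.

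Amphiregulin is the ligand most often used as the readout of the ovulatory EGF signal. The Areg level (RefSeq NM_009704) was -6.73, -6.38, -7.20, -6.12 and -7.37 in the NC1 arrays, -7.15, -6.33, -5.66, -2.37 and -6.94 in the C1 arrays and -4.02, -4.55, -3.33, -2.82 and -3.15 in the C2 arrays, in replicate order. The probe was well above background in 0 of 5 NC1 arrays, in 1 of 5 C1 arrays (replicate 4) and in 5 of 5 C2 arrays. C1 replicate 4 was higher than every C2 array, while the other C1 arrays fell in the range of or close to NC1. Against NC1, C2 was at least 2.22-fold higher (mean level -3.57 ± 0.70 against -6.76 ± 0.53, SD, n = 5 each, limma adjusted p = 0.000923). This is a bound because no NC1 array was well above background, and the lowest signal of any present probe stood in for the NC1 level. It refers to signal without normexp background correction. Against C1, the Areg change at C2 was 2.11 (SE 0.70, adjusted p = 0.0163) and not called. Without C1 replicate 4 it was called (adjusted p = 1.09e-05), at least 1.73-fold above the remaining 4 C1 arrays, none of which was well above background. This call is conditional on leaving out the array that was high in Areg.

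**Figure D1:**
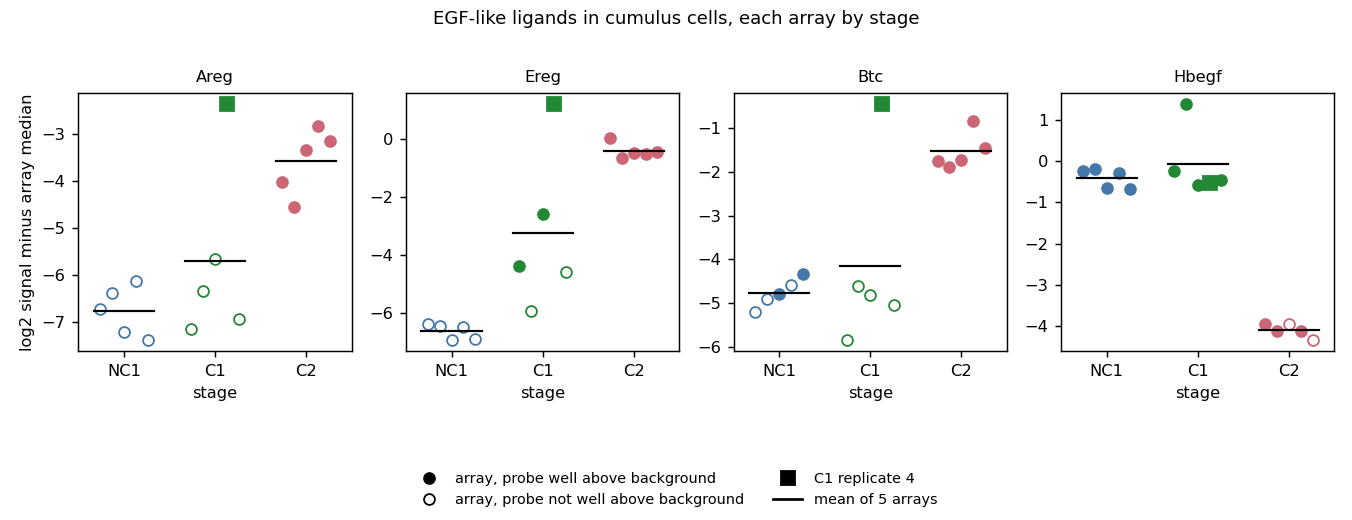
Level of the Areg, Ereg, Btc and Hbegf probes (log2 signal minus the array median, y axis, a scale of its own in each panel) in each of the 5 arrays of NC1, C1 and C2 (x axis). Filled symbols are arrays where the probe was well above background, open symbols arrays where it was not, the square is C1 replicate 4 and the line is the stage mean. Areg, Ereg and Btc were high in all C2 arrays and in C1 replicate 4 (-2.37, 1.19 and -0.45), and Hbegf was lowest in the C2 arrays.

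Epiregulin, which binds EGFR and ERBB4, was detected in part of the C1 arrays and in all C2 arrays. The Ereg level (NM_007950) was -6.37, -6.43, -6.90, -6.46 and -6.89 at NC1, -4.36, -5.91, -2.57, 1.19 and -4.58 at C1 and 0.02, -0.65, -0.49, -0.51 and -0.43 at C2. It was well above background in 0, 3 and 5 arrays of the stages. All C1 arrays were above all NC1 arrays, and C1 replicate 4 was above all C2 arrays. In signal without normexp correction, C2 was at least 19.9-fold higher than NC1 (means -0.41 ± 0.25 and -6.61 ± 0.26, n = 5 each, limma adjusted p = 2.2e-05). C1 exceeded NC1 by 3.36 in measured values (SE 0.91), with 3 of 5 C1 arrays well above background, but the adjusted p of 0.04 was over the threshold. Without C1 replicate 4, C1 was called against NC1 (adjusted p = 0.00642) at a measured change of 2.25 (SE 0.45). As only 2 of 4 C1 arrays and no NC1 array were above background, no bound is given. The change from C1 to C2 was 2.83 (SE 0.91, adjusted p = 0.0136) and not called. Without C1 replicate 4 it was 3.94 (SE 0.45, adjusted p = 3.03e-06), a difference of measured values, since 2 of the 4 remaining C1 arrays were well above background.

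Betacellulin, which binds both EGFR and ERBB4, was called between C1 and C2 also with all arrays, unlike Areg and Ereg. The Btc level (NM_007568) was -5.20, -4.92, -4.80, -4.59 and -4.34 at NC1, -5.84, -4.61, -4.82, -0.45 and -5.05 at C1 and -1.75, -1.89, -1.72, -0.82 and -1.44 at C2. It was well above background in 2 arrays of NC1, in replicate 4 of C1 and in 5 arrays of C2. The other 4 C1 arrays lay near or among the NC1 values, and C1 replicate 4 was above all C2 arrays. The change from C1 to C2 was 2.63 (SE 0.72, limma adjusted p = 0.00499), and it passed the threshold only narrowly. Leaving out C1 replicate 1, 2, 3 or 5 or C2 replicate 4 or 5 moved the adjusted p to between 0.0107 and 0.0156, and without C1 replicate 4 it was 3.91e-08, with Btc at least 7.15-fold higher at C2. Against NC1, where 2 of 5 arrays were well above background, the measured Btc values rose by 3.25 (SE 0.72, adjusted p = 0.000959).

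Within slides, C2 was higher than C1 on the 3 slides without C1 replicate 4 for Areg (1.64 to 3.60), Ereg (2.59 to 4.71) and Btc (3.07 to 3.78). On the slide that held this array, the differences were -1.32, -1.77 and -0.90. Against NC1, the C2 values were higher on all 4 slides for Areg (2.72 to 3.58), Ereg (5.94 to 6.69) and Btc (2.72 to 3.76). With the slide as a block, the change of Btc from C1 to C2 was 2.29 (adjusted p = 0.0108). With normexp background correction, changes from NC1 to C2 were smaller and still called, at 1.03 for Areg (3.18 measured without it), 3.22 for Ereg (6.20) and 2.02 for Btc (3.25), and the fold bounds of Areg and Ereg given above, which were computed without this correction, exceed its values.

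Heparin-binding EGF-like growth factor, a ligand of EGFR and ERBB4, went the other way. The Hbegf level (NM_010415) was -0.25, -0.18, -0.66, -0.30 and -0.67 at NC1, -0.23, 1.37, -0.57, -0.53 and -0.45 at C1 and -3.95, -4.12, -3.94, -4.12 and -4.32 at C2. It was well above background in all NC1 and C1 arrays and in 3 of 5 C2 arrays. The C2 arrays were far below both other stages and close to each other, C1 replicate 4 lay among its stage, and C1 replicate 2 was the highest array. From C1 to C2 Hbegf fell 16.1-fold (change -4.01, SE 0.29, limma adjusted p = 1.52e-08), and from NC1 to C2 it fell 12.8-fold (adjusted p = 2.7e-08). With normexp correction these changes were -2.85 and -2.63, and both were called. NC1 and C1 differed by 0.33 (SE 0.29, adjusted p = 0.652).

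Nrg1, a ligand of ERBB3 and ERBB4, and Erbb3, a receptor with little kinase activity, had probes on the array but not in the authors' table. The Nrg1 probe was well above background in 5 of 15 arrays (3 NC1, 1 C1 and 1 C2) and the Erbb3 probe in 0 of 15. Neither was tested.

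EGFR, the receptor of Areg, Ereg, Btc and Hbegf, was measured with 3 probes. The file annotation places 1 probe on transcript variant 1 (NM_207655), which encodes the full-length receptor, and 2 on variant 2 (NM_007912), which encodes a shorter form without the kinase domain. The variant 1 level was 2.06, 2.05, 2.33, 2.05 and 2.21 at NC1, 1.36, 1.79, 1.74, 1.46 and 1.89 at C1 and 0.30, 0.44, 0.46, 0.78 and 0.95 at C2. The 3 stages did not overlap, with NC1 highest and C2 lowest, and C1 replicate 4 lay within its stage. Variant 1 fell 2.09-fold from C1 to C2 (change -1.06, SE 0.14, limma adjusted p = 8.43e-06) and 2.94-fold from NC1 to C2 (change -1.56, SE 0.14, adjusted p = 1.09e-07). The difference of -0.49 from NC1 to C1 was not called (SE 0.14, adjusted p = 0.0525).

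The variant 2 probes followed another course. Probe A read -0.70, -0.82, -0.40, -0.38 and -0.23 at NC1, -1.34, -0.88, -1.26, -1.44 and -1.10 at C1 and -1.35, -1.08, -1.30, -1.13 and -1.17 at C2. Probe B read -0.76, -0.47, -0.63, -0.76 and -0.32 at NC1, -1.24, -0.67, -1.23, -1.52 and -1.21 at C1 and -1.71, -1.47, -1.62, -1.33 and -1.36 at C2. For both probes C1 and C2 overlapped, and the C2 arrays were all below the NC1 arrays. From C1 to C2 the change of probe A was 0.00 (SE 0.13, adjusted p = 0.998) and that of probe B was -0.32 (SE 0.15, adjusted p = 0.0693). From NC1 to C1, probe A changed by -0.70 (SE 0.13, adjusted p = 0.00405) and was the only member probe called in that comparison, while probe B changed by -0.59 (SE 0.15, adjusted p = 0.026). The call of probe A was lost without NC1 replicate 3, 4 or 5 or C1 replicate 1, 3 or 4 (adjusted p 0.0103 to 0.0146), and under 3 of 6 scalings (0.0315 to 0.634). From NC1 to C2 both fell (changes -0.70 and -0.91, adjusted p = 0.000258 and 5.84e-05), though probe A was not called under 3 of 6 scalings (adjusted p 0.0417 to 0.0485).

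The variant 1 level minus the mean of the variant 2 probes, taken within each array, was lower at C2 than at C1 by a difference of -0.90 (SD 0.19 at C2 and 0.21 at C1, n = 5 each). Between NC1 and C2 the difference was -0.75, and between NC1 and C1 it was 0.15. These differences were chosen after the values were seen and are a description with no test, and the design of each probe's target region was not analysed here.

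**Figure D2:**
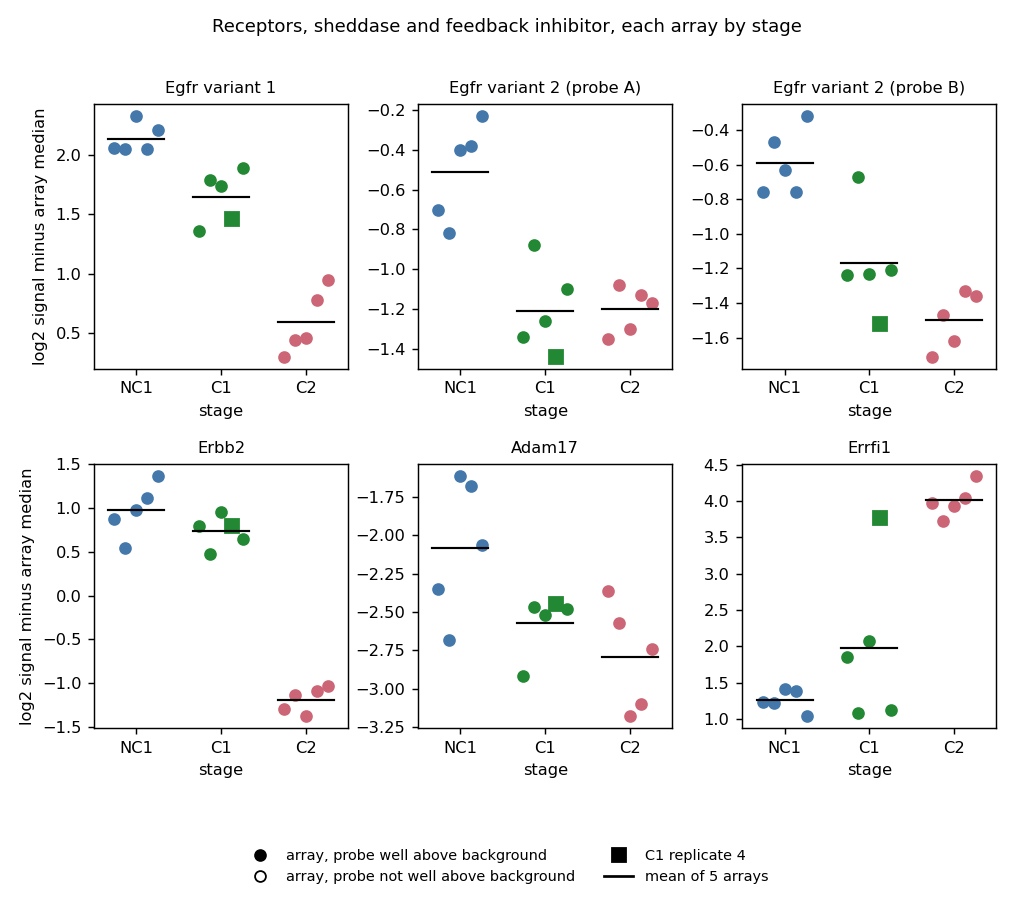
Level of the 3 Egfr probes, Erbb2, Adam17 and Errfi1 (log2 signal minus the array median, y axis, a scale of its own in each panel) in each array of NC1, C1 and C2 (x axis). Symbols are as in the plot of the ligands, and all arrays shown here were well above background. Egfr variant 1 and Erbb2 were lowest at C2, while Errfi1 was between 3.73 and 4.35 at C2 and 3.77 in C1 replicate 4.

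ERBB2, the coreceptor, was lower at C2 as well. The Erbb2 level (NM_001003817) was 0.88, 0.54, 0.98, 1.12 and 1.37 at NC1, 0.80, 0.48, 0.95, 0.80 and 0.65 at C1 and -1.30, -1.14, -1.38, -1.09 and -1.03 at C2. NC1 and C1 overlapped, and every C2 array was below both, with C1 replicate 4 inside its stage. Erbb2 fell 3.79-fold from C1 to C2 (change -1.92, SE 0.14, limma adjusted p = 1.79e-08) and 4.48-fold from NC1 to C2 (adjusted p = 3.32e-09). Within slides the C2 values were lower than C1 by -2.24 to -1.67 for Erbb2, by -1.45 to -0.63 for Egfr variant 1 and by -4.89 to -3.38 for Hbegf, each on 4 of 4 slides. Of the 8 granulosa and cumulus markers, Amh, Amhr2, Fshr, Inha, Inhba, Cyp19a1 and Nr5a2 were lower at C2 too.

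ADAM17, the protease that cuts the ligand precursors, differed less between stages. The Adam17 level (NM_009615) was -2.35, -2.68, -1.61, -1.68 and -2.06 at NC1, -2.92, -2.47, -2.52, -2.45 and -2.48 at C1 and -2.36, -2.57, -3.18, -3.10 and -2.74 at C2. The 3 stages overlapped. The change from C1 to C2 was -0.22 (SE 0.21, limma adjusted p = 0.377) and turned to 0.09 under the scaling of the authors' table. The change of -0.71 from NC1 to C2 (SE 0.21, adjusted p = 0.00741) was called, but not without NC1 replicate 3, 4 or 5 or C2 replicate 3, 4 or 5 (adjusted p 0.0132 to 0.023), and not under 4 of 6 scalings (0.0478 to 0.114).

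ERRFI1, the feedback inhibitor of the receptors, was called higher at C2 than at C1 with all arrays and without C1 replicate 4. The Errfi1 level (NM_133753) was 1.23, 1.22, 1.42, 1.39 and 1.04 at NC1, 1.85, 1.09, 2.08, 3.77 and 1.13 at C1 and 3.98, 3.73, 3.93, 4.04 and 4.35 at C2. C1 replicate 4 lay inside the C2 range and the other C1 arrays were all below it. Errfi1 rose 4.06-fold from C1 to C2 (change 2.02, SE 0.37, adjusted p = 0.000226), 5.53-fold without C1 replicate 4 (adjusted p = 8.39e-08), and 6.71-fold from NC1 to C2 (adjusted p = 9.87e-06).

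**Figure D3:**
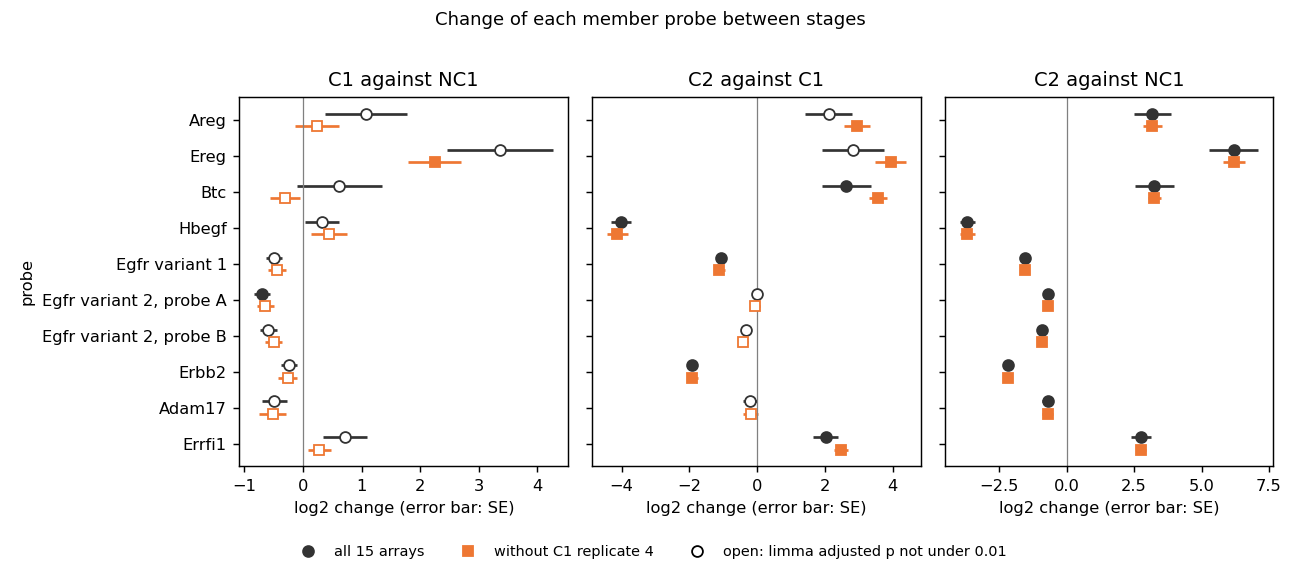
Log2 change of the 10 member probes (rows) between stages, with all 15 arrays (circles) and without C1 replicate 4 (squares). Error bars are the SE of the limma fit, and open symbols were not called. From C1 to C2 the changes of Areg, Ereg, Btc and Errfi1 were larger without C1 replicate 4 (2.94, 3.94, 3.56 and 2.47), while those of the other probes stayed close to the values with all arrays. Changes of probes below background in a stage are those of the measured values.

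C1 replicate 4 exceeded the mean of the 4 other C1 arrays by 4.15 for Areg, 5.54 for Ereg and 4.63 for Btc. A difference of over 2 in that direction was found for 0.513% of all probes tested. The same array was high in genes of cumulus expansion, the target genes of the signal, with levels of 2.70 for Tnfaip6 (-3.77 to -2.90 in the other C1 arrays), 0.81 for Ptx3 (-5.60 to -4.30) and -1.88 for Ptgs2 (-6.73 to -5.57). These were below the C2 levels for Tnfaip6 (3.75 to 4.78) and Ptgs2 (0.66 to 1.56) and within them for Ptx3 (0.53 to 2.71). The Has2 level of -2.59 lay within the other C1 arrays (-5.02 to -2.42). Egfr variant 1 (1.46), Erbb2 (0.80) and Hbegf (-0.53) lay within the other C1 arrays, Adam17 (-2.45) just above them and the Egfr variant 2 probes (-1.44 and -1.52) just below. Its summed granulosa marker level was 332 (269 to 356 in the other C1 arrays), that of theca and stroma markers 9.9 (13.6 to 16.5), that of leukocyte markers 0.495 (0.636 to 0.946) and that of oviduct epithelium markers 11.4 (7.21 to 11.9).

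The genes of Areg, Ereg and Btc, which were called higher at C2 than at NC1, lie side by side in the genome. In the RefSeq gene table of GRCm38.p6, Epgn, Ereg, Areg and Btc are 4 consecutive protein-coding genes on chromosome 5, between Mthfd2l and Parm1. Epgn encodes epigen, a further EGFR ligand. It was well above background in 0 NC1 arrays, in 1 C1 array (replicate 4, level -0.37) and in all C2 arrays (-3.56 to -1.84), as was Areg. The Epgn probe, like those of Areg, Ereg and Btc, met the condition for testing only at C2. The other C1 arrays read -7.06 to -5.72 for Epgn. C2 was at least 4.05-fold above NC1 for Epgn (limma adjusted p = 0.00212). The change from C1 to C2 was 2.48 (adjusted p = 0.0306), and without C1 replicate 4 it was called (adjusted p = 2.17e-07) at 3.15-fold or more. The flanking genes were measured in all arrays and moved less from C1 to C2, by 0.64 for Mthfd2l (adjusted p = 0.000265) and by 1.05 for Parm1 (adjusted p = 8.07e-05). C1 replicate 4 differed from the mean of the other C1 arrays by 0.32 for Mthfd2l and by -0.01 for Parm1, against 6.01 for Epgn.

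**Figure D4:**
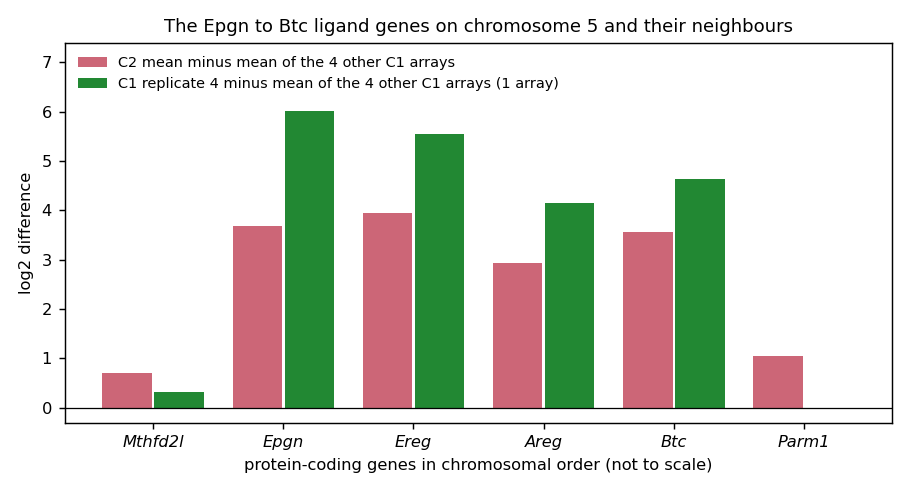
Log2 differences for 6 neighbouring protein-coding genes of chromosome 5 in their order (x axis, not to scale). Bars show the C2 mean minus the mean of C1 without replicate 4, and C1 replicate 4, a single array, minus the same mean. For Epgn, Areg and Btc the other C1 arrays were not well above background, so these bars are differences of measured values. The 4 ligand genes had differences of 2.94 to 3.94 at C2 and 4.15 to 6.01 in C1 replicate 4, and the flanking genes at most 1.05.

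In the RefSeq promoter table used here (GRCm38.p6), Areg, Btc, Egfr, Erbb2, Adam17 and Errfi1, 6 of the 10 members, were matched, with 7 windows from 250 bases before to 50 after a transcript start. The stretches of the ligands Areg and Btc and of the inhibitor Errfi1 are shown, all 3 of which were high at C2 and in C1 replicate 4. Capitals mark the consensus cAMP response element TGACGTCA, the motif bound by CREB proteins, and the TATA box TATAAA. Areg and the second start of Errfi1 held both, and Btc, with the same expression trait, held neither. The window at the first Errfi1 start, which is not shown, held neither as well, and Ereg had no window. Areg covers chr5:91139449-91139598 on the plus strand, Errfi1 chr4:150854920-150855069 on the plus strand (second start) and Btc chr5:91402995-91403144 on the minus strand, each 150 bases before the start and 5′ to 3′.
Areg: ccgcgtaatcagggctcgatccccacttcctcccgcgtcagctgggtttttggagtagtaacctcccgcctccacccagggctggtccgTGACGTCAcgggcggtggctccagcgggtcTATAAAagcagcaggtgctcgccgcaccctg
Errfi1: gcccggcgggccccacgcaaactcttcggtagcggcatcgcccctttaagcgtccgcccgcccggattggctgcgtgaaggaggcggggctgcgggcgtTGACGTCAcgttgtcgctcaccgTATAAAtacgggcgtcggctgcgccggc
Btc: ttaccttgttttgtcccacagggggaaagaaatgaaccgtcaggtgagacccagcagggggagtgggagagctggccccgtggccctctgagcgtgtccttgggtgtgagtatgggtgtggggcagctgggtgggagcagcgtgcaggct
The response element began at position -61 relative to the start in Areg and -51 in Errfi1. It was found in 1.79% of 32851 RefSeq promoter windows of the same length, on either strand, and in 2 of the 7 member windows. The TATA box began at -31 and -28, and 13.6% of all windows held one. The GC box GGGCGG was in 4 of the 7 member windows and in 35.7% of all, and the AP-1 motif TGAGTCA was in none of them and in 5.2% of all. These are matches of letters and not measured binding.

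The patterns most like Areg over the 15 arrays were those of Olfr1247 (Pearson r = 0.956), Btc (0.955), Olfr1251 (0.955), Egln3 (0.954), which encodes a prolyl hydroxylase of the hypoxia response, and Epgn (0.953). Both olfactory receptor probes were dim, with mean levels of -6.79 and -6.94 at NC1 and -3.89 and -3.63 at C2, and like Areg they were higher in C1 replicate 4 (-3.64 and -3.31) than their C1 means. Those most like Egfr variant 1 were Clstn2 (0.987), Plbd1 (0.986), Igf1 (0.983), which encodes insulin-like growth factor 1, Lonrf1 (0.980) and Tanc1 (0.978). The correlations are descriptive, since the arrays fall into 3 stages and C1 replicate 4 carries part of the first set.

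Among the other EGF-like ligands and ERBB4, 3 of 7 genes were tested (Egf, Nrg3, Nrg4 and Erbb4 were not). From C1 to C2, Nrg2, a neuregulin, was called lower, at least 2.09-fold (limma adjusted p = 3.04e-06), as no C2 array was well above background. The Nrg2 probe met the condition for testing only at NC1 and C1, so its direction was largely set by that filter. Tgfa, which encodes the EGFR ligand transforming growth factor alpha, was at -3.73, -3.51, -3.32, -3.90 and -3.57 in C1 and at -3.29, -3.02, -3.33, -3.41 and -2.97 in C2, with a change of 0.40 that was not called (adjusted p = 0.0106) but was called under 4 of 6 scalings. Of 8 other sheddases and rhomboid proteins, 1 was called higher and 1 lower (24.2% and 24.4% of all probes), with a median change of -0.06 (-0.01 over all probes). Rhbdf2, the iRhom that carries ADAM17 to the cell surface, rose by 2.17 (adjusted p = 7.06e-07). Adam10, the sheddase of EGF and betacellulin, changed by -0.60 (adjusted p = 0.00913) and was called under 2 of 6 scalings, and not without C1 replicate 4 (adjusted p = 0.0228).

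Of 14 adaptors and kinases of the ERK cascade reported, 7 were called higher at C2 than at C1, 1 lower and 6 not called, against 24.2% higher and 24.4% lower over all probes, with a median change of 0.45. The 7 were Grb2 (1.05), Sos2 (1.02), Shc1 (0.95), Map2k1 (0.81), Mapk3, which encodes ERK1 (0.79), Nras (0.62) and Map2k2 (0.57), with adjusted p between 1.68e-07 and 0.000156. Gab2, an adaptor that was well above background in 2 of 5 C2 arrays, fell by 0.84 in measured values (adjusted p = 0.00207) and was called under 3 of 6 scalings. The Gab2 probe met the condition for testing only at NC1 and C1. With the arrays scaled on the spike-in probes, all 8 changes kept their direction, but limma called 0 genes higher (5 at an unadjusted p under 0.05) and 1 lower. Kinase messenger levels are no measure of kinase activity.

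Of 14 feedback and turnover regulators, 7 were called higher, 2 lower and 5 not called, against the same 24.2% and 24.4% of all probes, with a median change of 0.97. Those higher were the ERK phosphatases Dusp4 (3.85) and Dusp6 (3.12), the RAS pathway inhibitors Spred2 (2.43) and Spred1 (1.35), the receptor ubiquitin ligases Cblb (2.28) and Rnf41 (0.67), and Lrig1 (1.42), which promotes loss of EGFR from the cell surface. Dusp4 and Spred2 were well above background in 1 of 5 C1 arrays (replicate 4) and their changes are those of measured values. Without this array, which left none above background, C2 was at least 6.82-fold higher for Dusp4 and 2.27-fold for Spred2. Lrig3 fell by 0.99 (adjusted p = 1.69e-05) and was called under 4 of 6 scalings, and Rnf41 under 5 of 6. Spry1, a Sprouty inhibitor, was well above background in 5 C1 arrays and 0 C2 arrays and fell at least 3.25-fold (adjusted p = 3.87e-09). Its relative Spry2 changed by 1.28 and was not called (adjusted p = 0.0295). Dusp4 and Spred2 met the condition for testing only at C2, and Spry1 only at NC1 and C1. The directions of these genes were thus largely set by that filter, and their part in the counts is no support for a pattern. The 4 genes of cumulus expansion all rose: Tnfaip6 by 6.43, Ptgs2 by 6.41, Ptx3 by 5.27 and Has2 by 2.58 (adjusted p 7.95e-07 to 0.000165). In C1, Tnfaip6 was well above background in 5 arrays, Has2 in 2 and Ptgs2 and Ptx3 in 1, replicate 4, so that the changes of the last 3 are those of measured values. Ptgs2 met the condition for testing only at C2, so its direction was largely set by that filter. Without C1 replicate 4 the changes were 7.64 for Tnfaip6 and 2.86 for Has2, and C2 was at least 42.2-fold higher for Ptgs2 and 55-fold for Ptx3. Between NC1 and C1 none of the 43 genes of these 5 lists was called by limma, and 4 had an unadjusted p under 0.05.

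**Figure D5:**
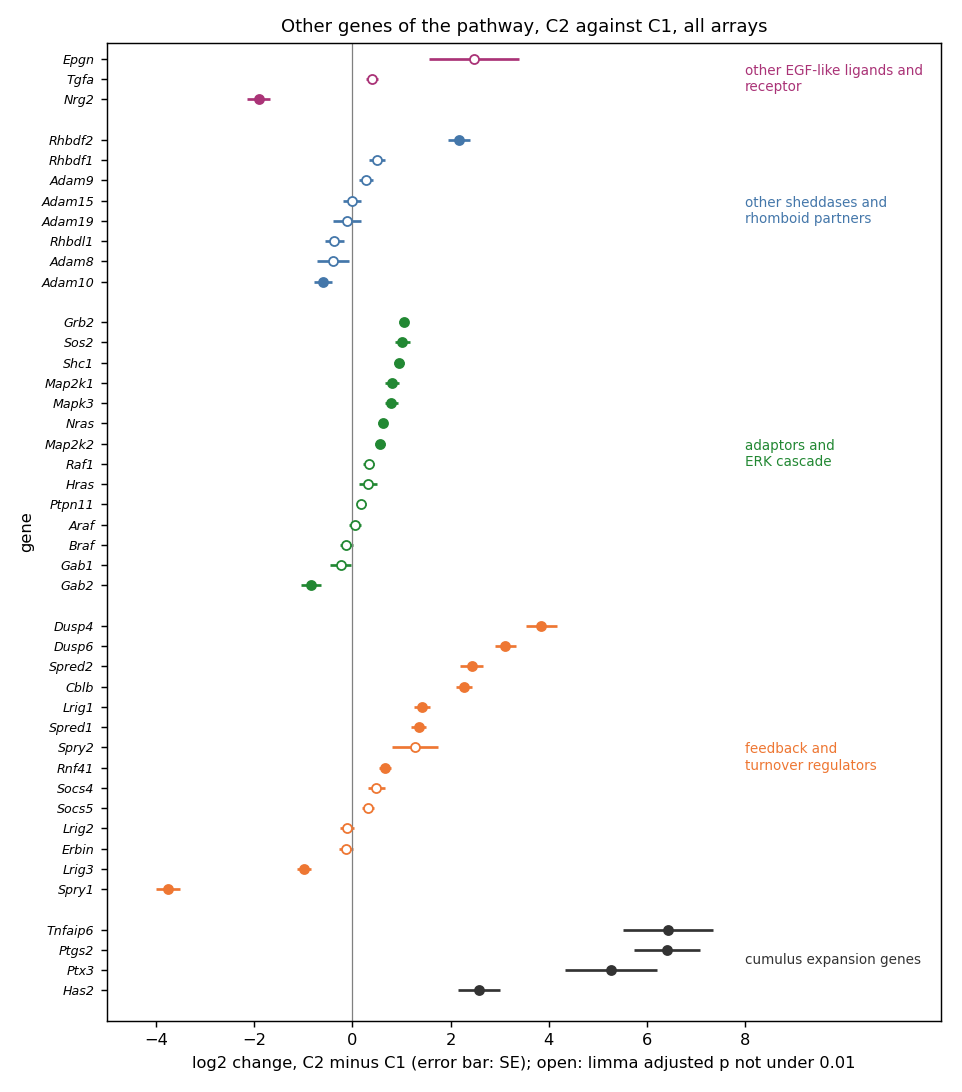
Log2 change from C1 to C2 (x axis, mean of C2 minus mean of C1, error bar SE) of 43 further genes of the pathway (rows, grouped by list and ordered by change), 1 probe per gene. Filled symbols were called and open ones not. The expansion genes had changes of 2.58 to 6.43, and Dusp4 and Dusp6 of 3.85 and 3.12, while Spry1 and Nrg2 lay on the other side of 0. Ptgs2, Ptx3, Has2, Dusp4, Spred2 and Epgn were well above background in at most 2 C1 arrays Gab2 in 2 C2 arrays and Spry1 and Nrg2 in no C2 array, so these points are differences of measured values.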

How the data were processed

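Scanner files deposited by the authors hold the background-subtracted intensity of every spot, not scaled between arrays, from Feature Extraction (10.7.1.1 per the file headers, 10.5.1.1 per the submitters' processing notes). They also deposited a table of log2 values for 20855 gene probes, each array shifted by a constant (SD over probes of the difference from the log2 signal at most 0.007), which defined the members and was otherwise an alternative.

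From the intensities, spots with a flag for non-uniformity or for a population outlier were dropped, the spots of a probe averaged, log2 taken and each array's median over 17324 probes subtracted. Presence, another column of the scanner files, was the software's call of well above background. Tested were 20844 probes present in at least 4 of 5 arrays of at least 1 stage (the study's methods ask for every stage, an alternative here), in 1 model over 15 arrays with limma 3.58.1 (R 4.3.3), Benjamini-Hochberg adjusted, called at 0.01. The script was tested on simulated data. No spot was saturated. The number of arrays limits the precision.

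Bounds set the brighter mean against, per array of the dim group, the higher of the lowest present signal and the probe's own signal. The lowest present signal is no strict detection limit, and the bounds depend on this choice. The Nrg1 probe, for example, missed the presence call at -3.48 in C1 replicate 3. The mean used for Areg in C1 without replicate 4 was -4.36. All bounds refer to signal without normexp correction, under which they need not hold. Probes were named through RefSeq accessions (26055 probes) or the table only (2770), and 10604 stayed unnamed. All member probes, the called genes of 5 pathway lists (the tested probe with the highest mean per gene, 2 genes not reported here) and the 5 patterns most like Areg and Egfr are named. Members and lists were chosen with earlier results of these data known. Alternatives were other scalings, filters, background correction, slide and replicate blocks and leaving out each array. The normexp correction used the median spot signal and was, with the bounds and counts without C1 replicate 4, the list scalings, the Egfr variant comparison and the neighbouring genes, chosen after seeing the data.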

Additional observations from a re-analysis of the deposited data

Results flagged for a closer look

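In 48 groups of 5 arrays examined for the members, Epgn, Tgfa and the cumulus expansion genes, 7 held an array past Dixon's limit. The measure was the array's gap to the next as a share of the group's range. A single group passes this limit by chance about 1 time in 20. The 48 groups share arrays, and C1 replicate 4 had already been singled out by its levels in Areg, Ereg, Btc and Errfi1. The count thus cannot be set against that rate, and the 7 flags are a description. C1 replicate 4 was the highest of its stage in 5 of them: Btc (share 0.772), Epgn (0.8), Ptgs2 (0.762), Ptx3 (0.797) and Tnfaip6 (0.866). C1 replicate 2 was high for Hbegf (0.822), and C1 replicate 1 was the lowest for Adam17 (0.84). Over all probes, C1 replicate 4 was the highest of C1 and past the limit for 0.667%. Outside the authors' table, the Nrg1 probe was well above background in 5 of 15 arrays, and its level averaged -4.49 ± 0.56 over NC1, -4.40 ± 0.70 over C1 and -5.88 ± 0.67 over C2 (SD, n = 5 each). A further Adam17 probe was well above background in 7 of 15 arrays, with mean levels of -3.89 ± 0.55, -3.75 ± 1.19 and -4.25 ± 0.67. Neither was tested.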

How the results depend on the processing

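Of 768 alternatives over 30 member results, 703 kept direction and side of the threshold, 40 lost a call, 13 gained one and 12 reversed. Reversals concerned uncalled changes: from C1 to C2, Egfr variant 2 probe A read -0.15 with spike-in scaling, -0.00 with the slide as a block and -0.06 to 0.08 when leaving out each array, and Adam17 read 0.09 with the authors' table and with the all-probe median. From NC1 to C1, leaving out each array gave -0.31 (without C1 replicate 4) to 1.04 for Btc and -0.03 (without C1 replicate 2) to 0.45 for Hbegf.

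Areg from C1 to C2 was called with the authors' table (2.42), the all-probe median (2.42), quantile normalization (2.58), spike-in scaling (1.96) and the replicate block (2.11, adjusted p = 0.00641), as well as without C1 replicate 4. Ereg was called with the authors' table and the all-probe median (3.14 each) and spike-in scaling (2.68). Requiring presence in every stage left 6 member probes and no value for Areg, Ereg, Btc and Hbegf, with 3 called from C1 to C2 and 6 from NC1 to C2. From NC1 to C1, 0 members were called with the authors' table, the all-probe median, normexp, no filter, the slide block, the replicate block or 2 stages only (limma, 4 to 5 at an unadjusted p under 0.05), and 0 to 2 when leaving out each replicate in turn. The count over all probes fell with spike-in scaling to 395 (NC1 to C1), 5996 (C1 to C2) and 6814 (NC1 to C2), and without a filter to 390 (NC1 to C1), where 39429 probes were tested.

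Of the calls from C1 to C2, 49.8% were higher, against 67.7% with the authors' table and 35.3% with spike-in scaling, where the median change of all probes was 0.30 and -0.17 (-0.01 as reported). Pools were labelled only by number, and the arrays were not treated as paired by it. Same-number deviations correlated at -0.12 to 0.31, and 4 of 15 arrays correlated best with an array of their own number. This check has no chance level beside it and is too weak to show whether a batch was shared by number. With the replicate block 529, 9849 and 10718 probes were called, against 612, 10140 and 10913. Signal near background limits Areg, Ereg, Btc and Epgn at NC1 and C1. The causes of these shifts were not tested.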
